A study of Mus musculus with 31 samples.

Results

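The Hox genes of the mouse are 39 homeobox genes in 4 clusters, and all rows whose symbol reads Hoxa, Hoxb, Hoxc or Hoxd followed by a number were taken, 39 of the 55492 rows of the count table. Hoxa lies on chromosome 6 (chr6:52155590-52260880, 11 genes, 105.3 kb), Hoxb on chromosome 11 (chr11:96194316-96368256, 10 genes, 173.9 kb), Hoxc on chromosome 15 (chr15:102921103-103036852, 9 genes, 115.8 kb) and Hoxd on chromosome 2 (chr2:74668310-74765142, 9 genes, 96.83 kb), in GRCm38 (mm10). Hox proteins are transcription factors that bind DNA with Pbx and Meis partners and set position along the body axis in the embryo. In adult marrow, genes of the Hoxa and Hoxb clusters are known as regulators of stem cell self-renewal and fall as cells differentiate, and Hoxa9 with Meis1 is a driver of myeloid leukaemia. Trithorax and MLL complexes keep the clusters active and Polycomb complexes keep them silent. Many Hox promoters are rich in CpG, the sequence at which DNA can be methylated.

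The RNA came from marrow LT-HSCs, long-term stem cells of the blood, that were gated as lineage-negative, Kit-positive, Sca1-positive, CD150-positive and CD48-negative cells. The mice were wild type and had been transplanted with mutant marrow mixed with a 10-fold excess of wild-type marrow. VFDM marrow was SclCre;FF1;Dnmt3Δ/Δ;GFP, which combines the JAK2-V617F transgene with deletion of the DNA methyltransferase Dnmt3a. VF marrow had the genotype SclCre;FF1;GFP, with the same transgene, so each group carried JAK2-V617F and SclCre, a Cre driven by the promoter of the haematopoietic gene Scl. The labels do not say whether GFP-positive cells were selected, so libraries could hold wild-type cells. Mice of each genotype received both drugs together (COMBO), 5-azacytidine alone (AZA, daily at 2 mg/kg), which lowers DNA methylation, pegylated interferon alpha alone (IFN, 25 µg/kg each week) or vehicle (V). Treatment began 4 weeks after transplant and lasted 8 weeks. Each group had 4 libraries, except VFDM COMBO with 3 (numbered 2, 3 and 4), 31 in all. Levels are CPM, counts scaled to library size by TMM, and a change is a log2 fold change ± SE from edgeR's quasi-likelihood test, with Benjamini-Hochberg adjusted p-values over 22172 rows and a threshold of 0.05.

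The libraries held 17782394 to 73910928 counts and 17087 to 28851 detected rows, and 8 of them had fewer than 20000 detected rows. The share of counts on small and ribosomal RNA was 22.3%, 24.9%, 8.49% and 37.5% in VF vehicle libraries 1 to 4 and 5.02% to 10.5% in the other groups. Dnmt3a, the deleted gene, stood at 23.0 to 57.0 CPM in VFDM COMBO, 83.4 to 107 CPM in VFDM AZA, 102 to 162 CPM in VFDM IFN and 109 to 120 CPM in VFDM vehicle libraries, against 104 to 193 CPM in VF COMBO, 176 to 223 CPM in VF AZA, 160 to 178 CPM in VF IFN and 162 to 297 CPM in VF vehicle libraries. The 162 CPM belonged to the library labelled VFDM IFN 3, whose level went against its label, and the Hox call counts were the same without it in every comparison. The lowest VF value, 104 CPM in VF COMBO library 3, lay within the VFDM range. The labels do not say that libraries came from separate animals, so p-values measure the spread between libraries. The LT-HSC label was also uncertain for VFDM COMBO, where Procr, the gene of the stem cell surface receptor EPCR, averaged 0.176 ± 0.228 CPM, against 36.2 ± 2.92 CPM in VFDM vehicle libraries (SD, n = 3 and 4). Of the gate's genes, Slamf1 (CD150) stood at 87.6 to 95.4 CPM in VFDM COMBO and 59.3 to 93.3 CPM in VFDM vehicle libraries. In the same order, Ly6a (Sca1) stood at 11.6 to 18.01 and 12.1 to 15.3 CPM, and Kit at 515 to 677 and 684 to 805 CPM. Slamf1, Ly6a and Kit were not called, while Cd48, whose product the gate excludes, was called higher.

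To show how the promoters of detected and silent members differ in CG dinucleotides, the letters that DNA methyltransferases act on, 4 RefSeq windows of 250 bases before the annotated start are given, 5′ to 3′ on the gene's own strand in GRCm38.p6, with each CG in capitals. Hoxa5 (chr6:52204588-52204837, minus strand) and Hoxa9 (chr6:52227371-52227620, minus strand) are detected Hoxa genes, Hoxb4 (chr11:96318017-96318266, plus strand) is the most abundant Hoxb gene, and Hoxd4 (chr2:74721728-74721977, plus strand) had no reads.
Hoxa5: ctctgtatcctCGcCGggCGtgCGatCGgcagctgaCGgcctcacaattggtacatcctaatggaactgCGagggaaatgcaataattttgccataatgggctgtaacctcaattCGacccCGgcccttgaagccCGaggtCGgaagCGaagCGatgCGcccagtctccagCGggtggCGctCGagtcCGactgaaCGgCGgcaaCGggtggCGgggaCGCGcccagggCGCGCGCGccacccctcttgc
Hoxa9: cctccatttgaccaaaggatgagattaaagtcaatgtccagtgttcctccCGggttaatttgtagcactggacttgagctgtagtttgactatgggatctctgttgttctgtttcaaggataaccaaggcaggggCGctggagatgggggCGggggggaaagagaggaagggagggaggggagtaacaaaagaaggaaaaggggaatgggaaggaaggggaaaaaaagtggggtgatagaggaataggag
Hoxb4: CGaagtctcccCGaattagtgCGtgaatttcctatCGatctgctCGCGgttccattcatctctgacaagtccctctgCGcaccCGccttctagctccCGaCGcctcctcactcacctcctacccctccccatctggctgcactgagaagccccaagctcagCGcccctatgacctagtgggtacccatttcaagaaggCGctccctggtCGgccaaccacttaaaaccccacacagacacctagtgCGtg
Hoxd4: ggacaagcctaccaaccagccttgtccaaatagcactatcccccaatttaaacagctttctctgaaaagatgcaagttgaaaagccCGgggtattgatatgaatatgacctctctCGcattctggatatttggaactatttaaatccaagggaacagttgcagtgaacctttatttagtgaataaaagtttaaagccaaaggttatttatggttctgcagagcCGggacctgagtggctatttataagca
Hoxa5 held 28 CG dinucleotides, Hoxb4 held 14, and Hoxa9 and Hoxd4 held 3 each. RefSeq windows were matched for 22 of the 39 genes (24 windows, Hoxa10 and Hoxd11 having more than 1). Detected members had a median of 12 CG (11 windows, range 3 to 28), members at a low level 13 (7 windows, 2 to 35) and members with no reads 12.5 (6 windows, 3 to 31), while all 32851 RefSeq windows had a median of 6. The 3 medians lay close together. The Meis motif TGACAG, sought on both strands, lay in 2 of the 24 windows (8.33%), Hoxa2 and Hoxa3, against 15.9% of all windows. The Pbx-Hox motif TGATNNAT lay in 4 of 24 windows (16.7%), Hoxa2, Hoxb1, Hoxb8 and Hoxd11, against 7.68% of all windows. Methylation was not measured in these files.

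The clusters were unequally expressed. Of the 39 genes, 17 were detected (at least 1 CPM in at least 3 libraries), 15 had reads below that level and 7 had no reads. Hoxa genes gave 72.1% of all Hox counts, Hoxb genes 26.3%, Hoxc genes 1.60% and Hoxd genes 0.0119%. Detected Hoxa genes were Hoxa2, Hoxa3, Hoxa4, Hoxa5, Hoxa6, Hoxa7, Hoxa9 and Hoxa10, so expression ended between Hoxa10 and Hoxa11, which had 4 counts in all. Hoxa13 had 7 counts. Detected Hoxb genes were Hoxb2, Hoxb3, Hoxb4, Hoxb5, Hoxb6 and Hoxb8. Hoxb1 (41 counts), Hoxb7 (101) and Hoxb9 (36) were at a low level and Hoxb13 had no reads. Hoxc4, Hoxc5 and Hoxc6 were detected, Hoxc8 (112 counts), Hoxc9 (228), Hoxc10 (39), Hoxc11 (5), Hoxc12 (6) and Hoxc13 (9) were at a low level. In the Hoxd cluster Hoxd8 had 13 counts, 11 of them in VFDM COMBO library 4, Hoxd10 had 8 and Hoxd11 had 5. Hoxd1, Hoxd3, Hoxd4, Hoxd9, Hoxd12 and Hoxd13 had no reads, which in the smallest libraries allows up to 0.174 CPM (3 counts, counting error only).

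**Figure D1:**
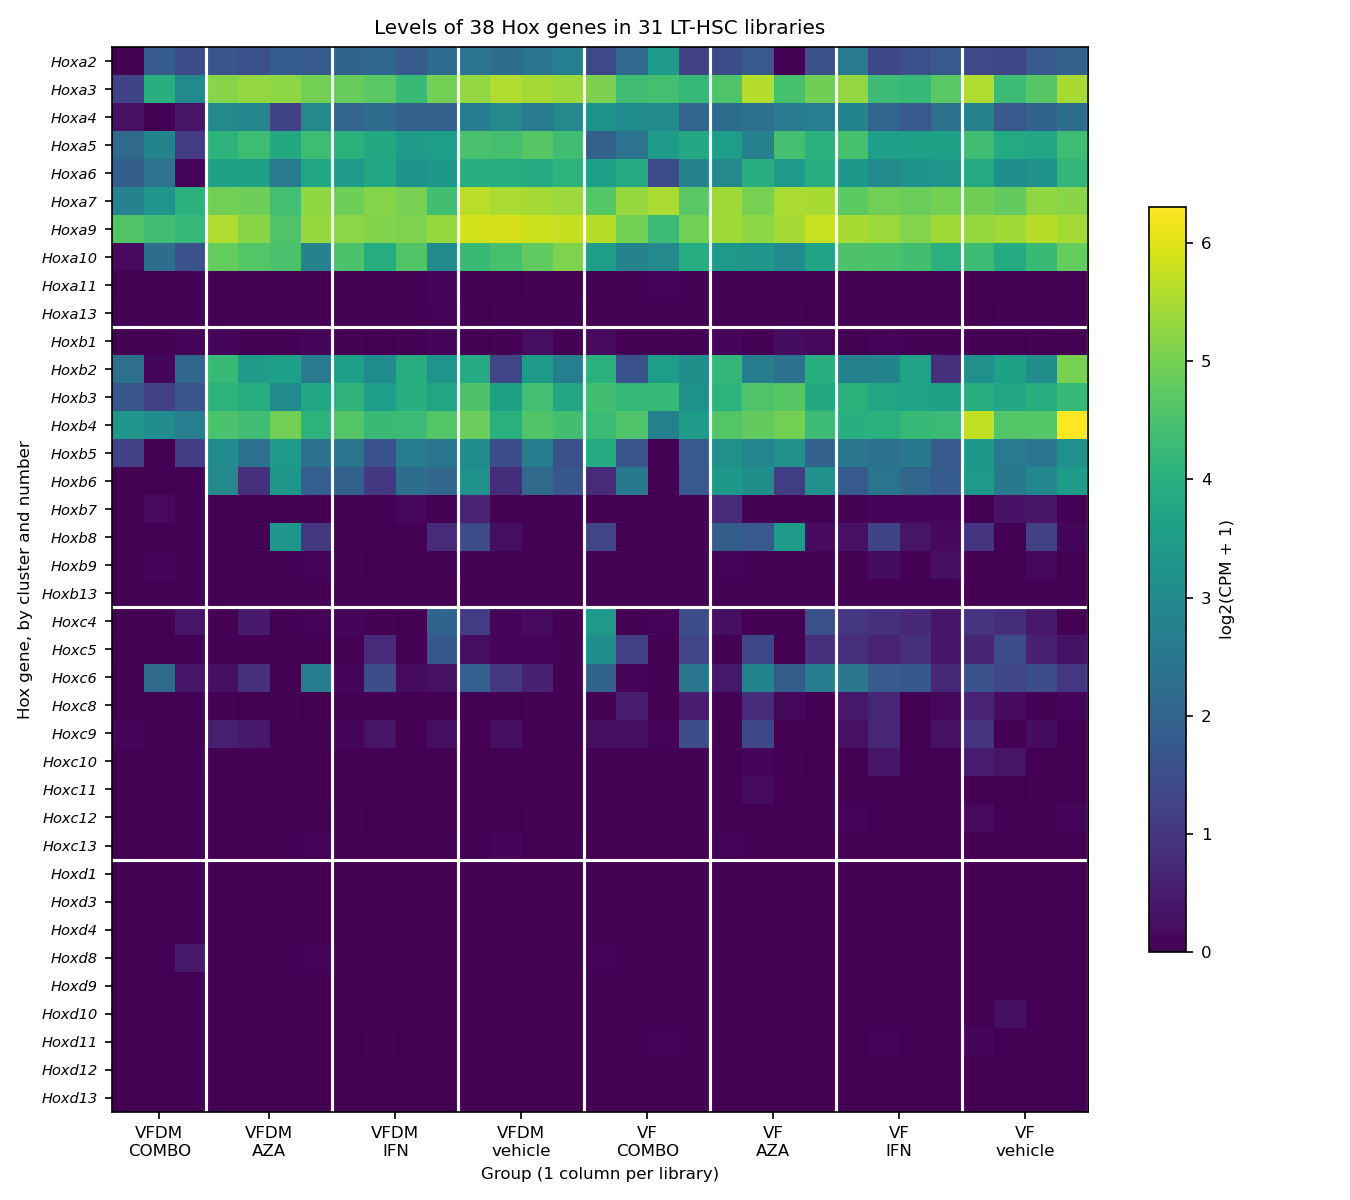
Level of 38 Hox genes (rows, by cluster and number) in each of the 31 libraries (columns, by group), as log2(CPM + 1). Bright rows lie from Hoxa3 to Hoxa10 and from Hoxb2 to Hoxb6, and the Hoxd block is dark throughout. In summed CPM the 3 VFDM COMBO columns are below the other 28 in the Hoxa and Hoxb blocks, though not in each row.

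Levels between genes were compared per kb of exon, since CPM grows with gene length. Hoxa6 (11.2 CPM per kb), Hoxa7 (11), Hoxb4 (8.58), Hoxa5 (7.15) and Hoxa9 (6.98) led, followed by Hoxa10 (4.75), Hoxa3 (4.70), Hoxb3 (3.22), Hoxa4 (2.71) and Hoxb2 (2.61), as means over all 31 libraries. The order differed between groups. Hoxa9 (3.61) led in VFDM COMBO libraries, with Hoxa6 at 2.66, Hoxa6 (16.9) and Hoxa7 (15.4) led in VFDM vehicle libraries, and Hoxb4 (17.4) and Hoxa6 (13.2) led in VF vehicle libraries, in CPM per kb. In plain CPM Hoxb4 stood at 52.3, 23.5, 24.2 and 78.3 in VF vehicle libraries 1 to 4, so libraries 1 and 4 raised its mean there. Over all libraries Hoxb6 (2.03), Hoxb5 (1.71) and Hoxa2 (1.57) came next, and the detected Hoxc genes (0.225 to 0.741) and Hoxb8 (0.412) were lowest. In plain CPM the order was led by Hoxa9 (38.9), Hoxa7 (31.6), Hoxa3 (28.2) and Hoxb4 (22.0). Some levels are uncertain because annotated exons overlap and the strand setting of the counting is not given in the sources used here. The antisense gene Hoxb3os shares 52.9% of the exon bases of Hoxb3 and 27.3% of those of Hoxb2, other antisense genes share 25.4% of Hoxa3, 20.4% of Hoxa7 (Hoxaas3) and 16% of Hoxa4, and the same-strand row Gm28308 shares 15% of Hoxa2 and 8.01% of Hoxa3. Among members without reads, Hoxd3 shares 62.3% and Hoxd4 52.3% of exon bases on the same strand, with each other and Gm28230, so their absence is uncertain too.

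**Figure D2:**
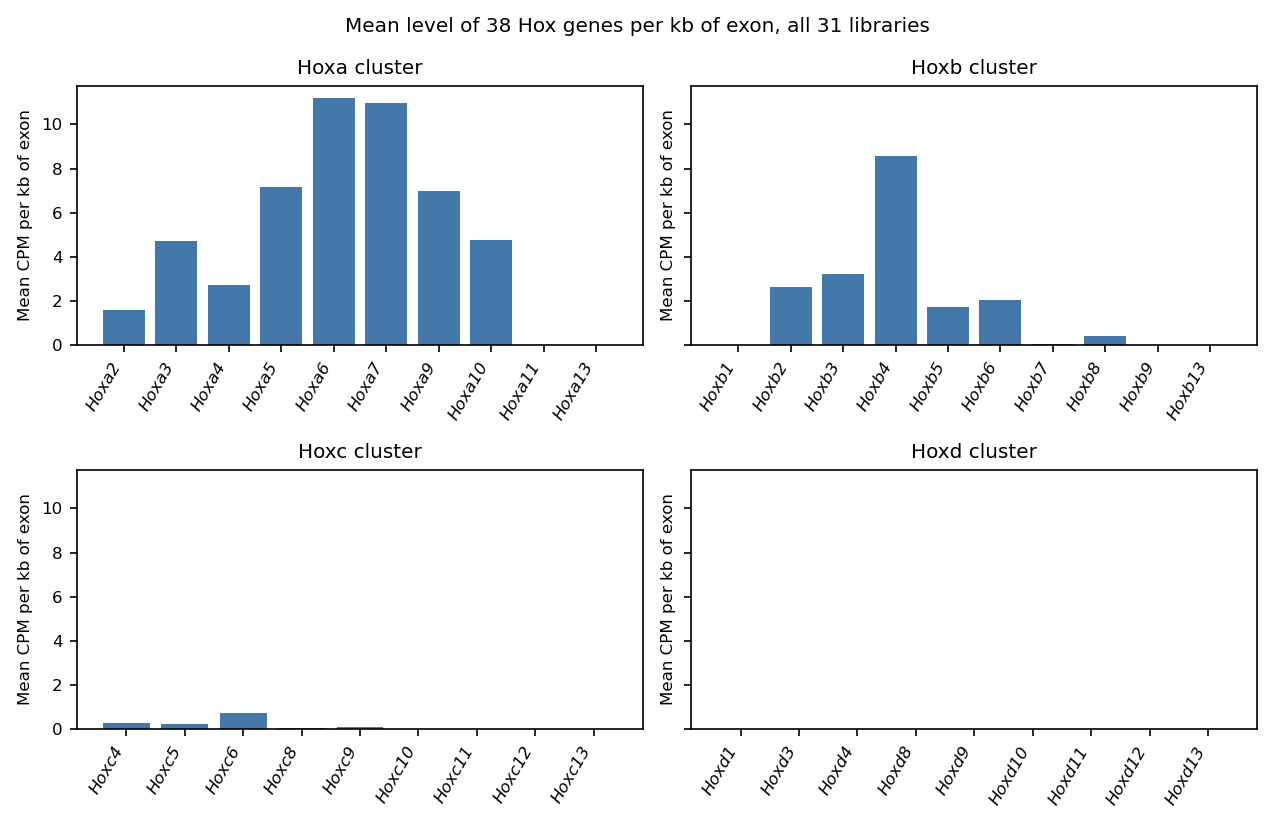
Mean level over all 31 libraries in CPM per kb of annotated exon for 38 Hox genes, in 1 panel per cluster with bars in order of gene number. Hoxa6 and Hoxa7 are the tallest bars at 11.2 and 11 CPM per kb, Hoxb4 reaches 8.58, and no Hoxd bar is visible.

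COMBO in VFDM cells was compared with vehicle to show what both drugs did together in cells with JAK2-V617F and the Dnmt3a deletion. Most expressed Hoxa and Hoxb genes were lower in VFDM COMBO. Of the 20 members that passed the filter on low counts, 10 fell and 0 rose, 7 of them Hoxa genes and 3 Hoxb genes, where 16% of all tested rows were called and 10.5% were called lower. The median log2 fold change of the 20 tested members was -2.20, against -0.08 over all tested rows, and 13 members had no overlap between the groups on the lower side, as had 23.4% of all tested rows. The remaining 19 members were too low to test.

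Hoxa9, which promotes stem cell self-renewal, had the highest mean of the members in plain CPM. Hoxa9 stood at 23.1, 19.6 and 17.7 CPM in VFDM COMBO libraries 2, 3 and 4, against 57.4, 58.7, 56.2 and 53.1 CPM in VFDM vehicle libraries 1 to 4. Every VFDM COMBO library was below every VFDM vehicle library, and the vehicle libraries spread little. The fall was 2.79-fold, a log2 fold change of -1.48 ± 0.23 (adjusted p = 2.07e-05), the smallest fold among the 10 called members. Hoxa7 stood at 5.9, 9.04 and 15.3 CPM in VFDM COMBO libraries 2, 3 and 4, against 49.6, 44.1, 43.1 and 40.6 CPM in VFDM vehicle libraries 1 to 4. Hoxa7, which is co-expressed with Hoxa9 in MLL-rearranged leukaemia, fell 4.40-fold with no overlap, a log2 fold change of -2.14 ± 0.28 (adjusted p = 1.12e-06). Hoxa10 stood at 0.126, 3.74 and 2.01 CPM in VFDM COMBO libraries 2, 3 and 4, against 17.9, 21.2, 26.4 and 32.8 CPM in VFDM vehicle libraries 1 to 4. Hoxa10, a regulator of stem and progenitor cell growth, was near 0 in COMBO library 2 and low in the other two, and fell 12.8-fold, a log2 fold change of -3.68 ± 0.61 (adjusted p = 4.65e-05).

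Hoxa3, Hoxa4, Hoxa5 and Hoxa6 fell as well. Hoxa3 stood at 1.42, 14.5 and 7.15 CPM in VFDM COMBO libraries 2, 3 and 4, against 38, 45.7, 42.7 and 40.00 CPM in VFDM vehicle libraries 1 to 4, a log2 fold change of -2.45 ± 0.45 (adjusted p = 0.000166). Hoxa3, known in the mouse embryo for restraining blood formation from haemogenic endothelium, was lowest in COMBO library 2 and highest in COMBO library 3, without overlap with vehicle. Hoxa5 stood at 3.5, 6.16 and 1.16 CPM in VFDM COMBO libraries 2, 3 and 4, against 21.6, 20.9, 24.5 and 19.6 CPM in VFDM vehicle libraries 1 to 4, a log2 fold change of -2.60 ± 0.50 (adjusted p = 0.000299). Hoxa5, whose overexpression favours myeloid over erythroid cells, was lowest in COMBO library 4. Hoxa6 stood at 2.65, 4.26 and 0.0627 CPM in VFDM COMBO libraries 2, 3 and 4, against 14.8, 14.3, 13.8 and 16 CPM in VFDM vehicle libraries 1 to 4, a log2 fold change of -2.68 ± 0.67 (adjusted p = 0.00464). Hoxa6 was also lowest in COMBO library 4 and the groups did not overlap. Hoxa4 stood at 0.221, 0 and 0.251 CPM in VFDM COMBO libraries 2, 3 and 4, against 5.39, 6.78, 5.21 and 6.82 CPM in VFDM vehicle libraries 1 to 4. Hoxa4 rested on 15 counts over the 3 COMBO libraries, against 1004 over the 4 vehicle libraries, a ratio of 0.0307 (95% exact counting interval 0.0171 to 0.0509), and its fitted change was -5.14 ± 0.77 (adjusted p = 1.07e-05).

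Of the Hoxb genes, Hoxb3, Hoxb4 and Hoxb6 passed. Hoxb3 stood at 2.24, 1.32 and 2.13 CPM in VFDM COMBO libraries 2, 3 and 4, against 22.2, 11, 20.4 and 12.7 CPM in VFDM vehicle libraries 1 to 4. Hoxb3, whose overexpression in marrow gives myeloproliferation, fell 8.67-fold, a log2 fold change of -3.12 ± 0.38 (adjusted p = 3.33e-07), and had the smallest adjusted p of the 20. Hoxb4 stood at 8.8, 7.42 and 5.52 CPM in VFDM COMBO libraries 2, 3 and 4, against 28.1, 15.2, 23.2 and 20.04 CPM in VFDM vehicle libraries 1 to 4. Hoxb4, known for expanding stem cells when overexpressed, fell 2.98-fold, a log2 fold change of -1.58 ± 0.38 (adjusted p = 0.00386), and no library of either group overlapped the other. Hoxb6 stood at 0, 0 and 0.0314 CPM in VFDM COMBO libraries 2, 3 and 4, against 8.46, 0.769, 3.54 and 2.29 CPM in VFDM vehicle libraries 1 to 4. Hoxb6 had 1 count over the 3 COMBO libraries, against 632 over the vehicle libraries, a ratio of 0.00325 (95% exact counting interval 8.22e-05 to 0.0182, adjusted p = 0.000262). The vehicle libraries themselves ranged widely, library 2 being low.

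The other tested members did not pass. Hoxa2, a hindbrain patterning gene, averaged 1.43 ± 1.32 CPM in VFDM COMBO and 4.56 ± 0.720 CPM in VFDM vehicle libraries (adjusted p = 0.271) with no overlap, and Hoxb5, a marker of mouse LT-HSCs, averaged 0.849 ± 0.737 CPM in VFDM COMBO and 4.14 ± 2.7 CPM in VFDM vehicle libraries (adjusted p = 0.122) with no overlap (SD, n = 3 and 4). Hoxb2 averaged 2.43 ± 2.10 CPM in VFDM COMBO and 7.79 ± 5.40 CPM in VFDM vehicle libraries (adjusted p = 0.189), and the groups overlapped. Hoxb8, an inhibitor of myeloid differentiation, had no reads in VFDM COMBO, against 0 to 1.71 CPM in VFDM vehicle libraries (adjusted p = 0.155). Hoxc4, Hoxc5, Hoxc6, Hoxc8 and Hoxc9 had adjusted p-values of 0.623 to 0.939. Summed over the 39 genes, VFDM COMBO libraries held 53.5, 72.5 and 58.5 CPM, against 296, 248, 280 and 257 CPM in VFDM vehicle libraries.

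**Figure D3:**
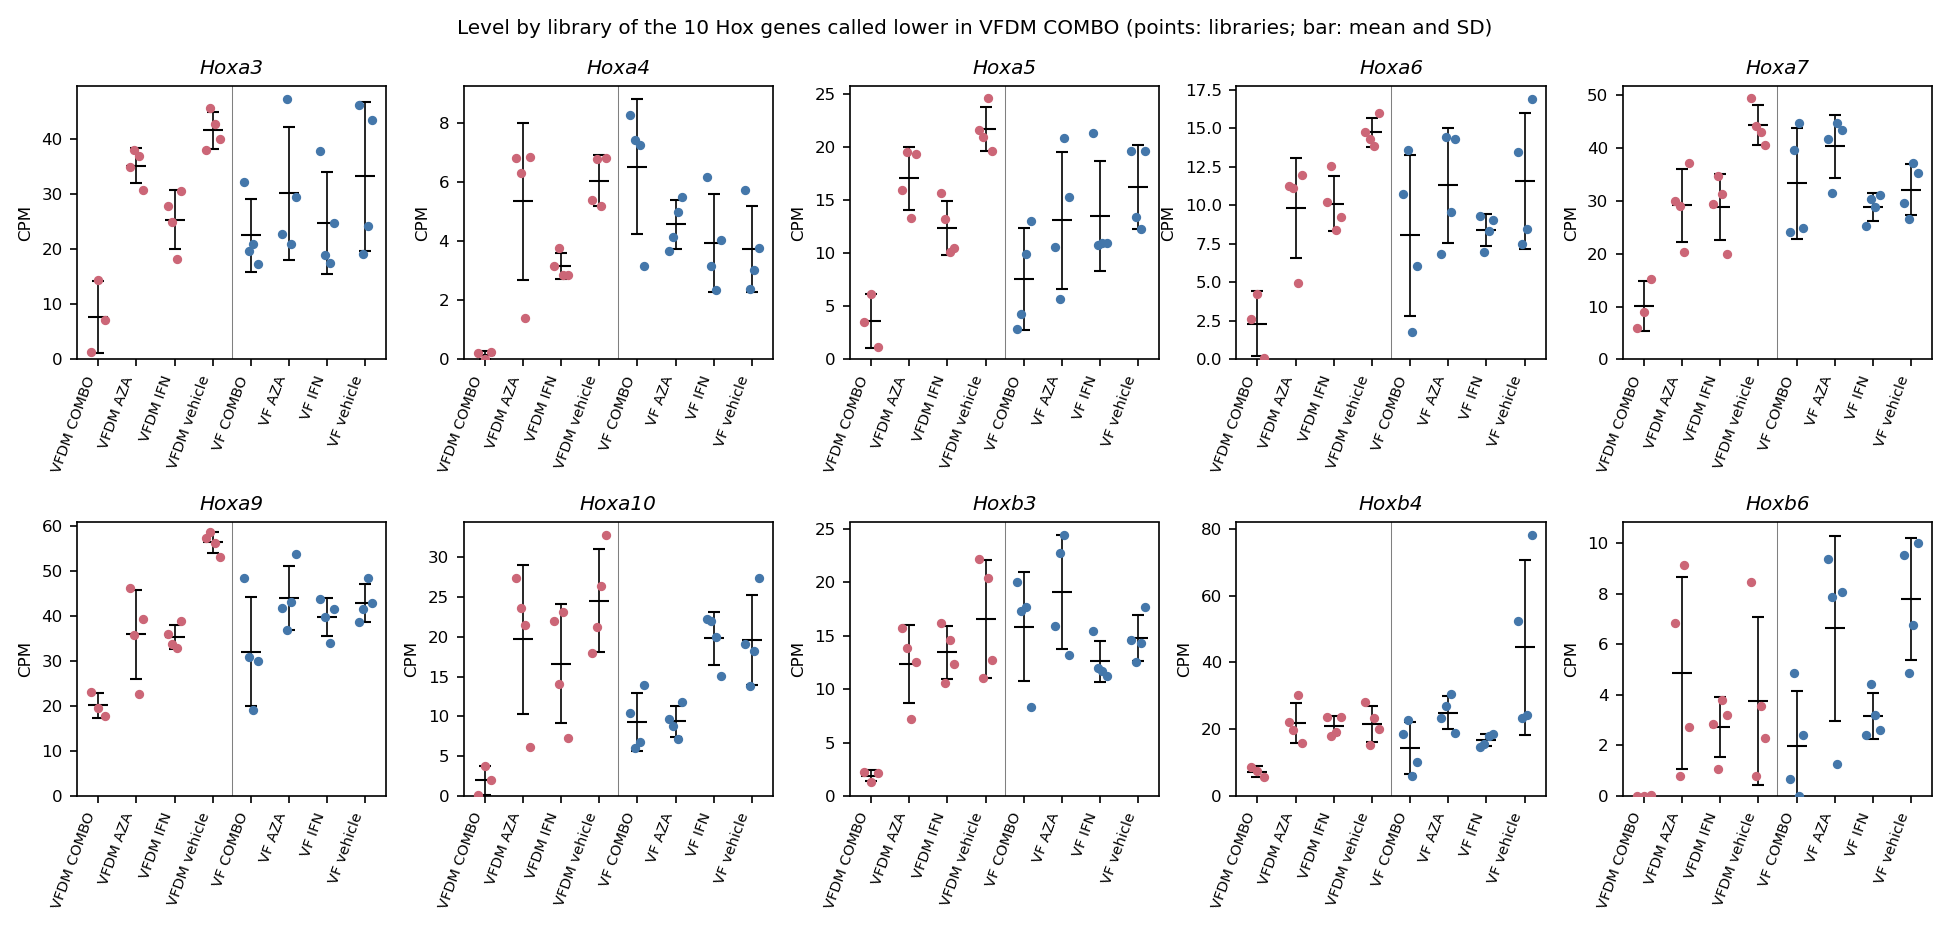
Level in CPM (vertical axis, from 0) of the 10 Hox genes called lower in VFDM COMBO than in VFDM vehicle, with a point per library, a bar for the group mean and whiskers for the SD. In each panel the VFDM COMBO points at the far left lie below the VFDM vehicle points, and the VF vehicle points of Hoxb4 run from 23.5 to 78.3 CPM.

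Markers of cell identity moved with these genes. Of a list of 14 LT-HSC markers, 10 fell in VFDM COMBO and 1, Cd48, rose, where 16% of all tested rows were called. The list is mixed. Cd48 marks cells that the gate excludes, and Cd34 and Flt3, among the 10 that fell, are low or absent on mouse LT-HSCs. The summed list ran from 832 to 953 CPM, against 2055 to 2366 CPM in VFDM vehicle libraries. No listed marker was at 0 in all 3 COMBO libraries. Of 12 erythroid markers 11 rose, with sums of 2343 to 18951 CPM in VFDM COMBO and 495 to 516 CPM in VFDM vehicle libraries, the highest sum being in COMBO library 3. Among neutrophil and monocyte markers 3 of 10 rose, with sums of 517 to 1067 CPM in VFDM COMBO and 100 to 169 CPM in VFDM vehicle libraries. B-cell markers rose for 3 of 5 tested, T and NK markers for 2 of 7, megakaryocyte markers for 1 of 8 with 1 lower, and stroma and endothelium markers for 1 of 6. Their part in the Hox differences was not tested. In bulk RNA, fewer Hox-expressing cells and less Hox RNA per cell cannot be told apart. Without the 8 libraries under 20000 detected rows, VFDM COMBO 3 among them, 12 members were called lower, and 10 were called in each fit that left out a library of either group.

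**Figure D4:**
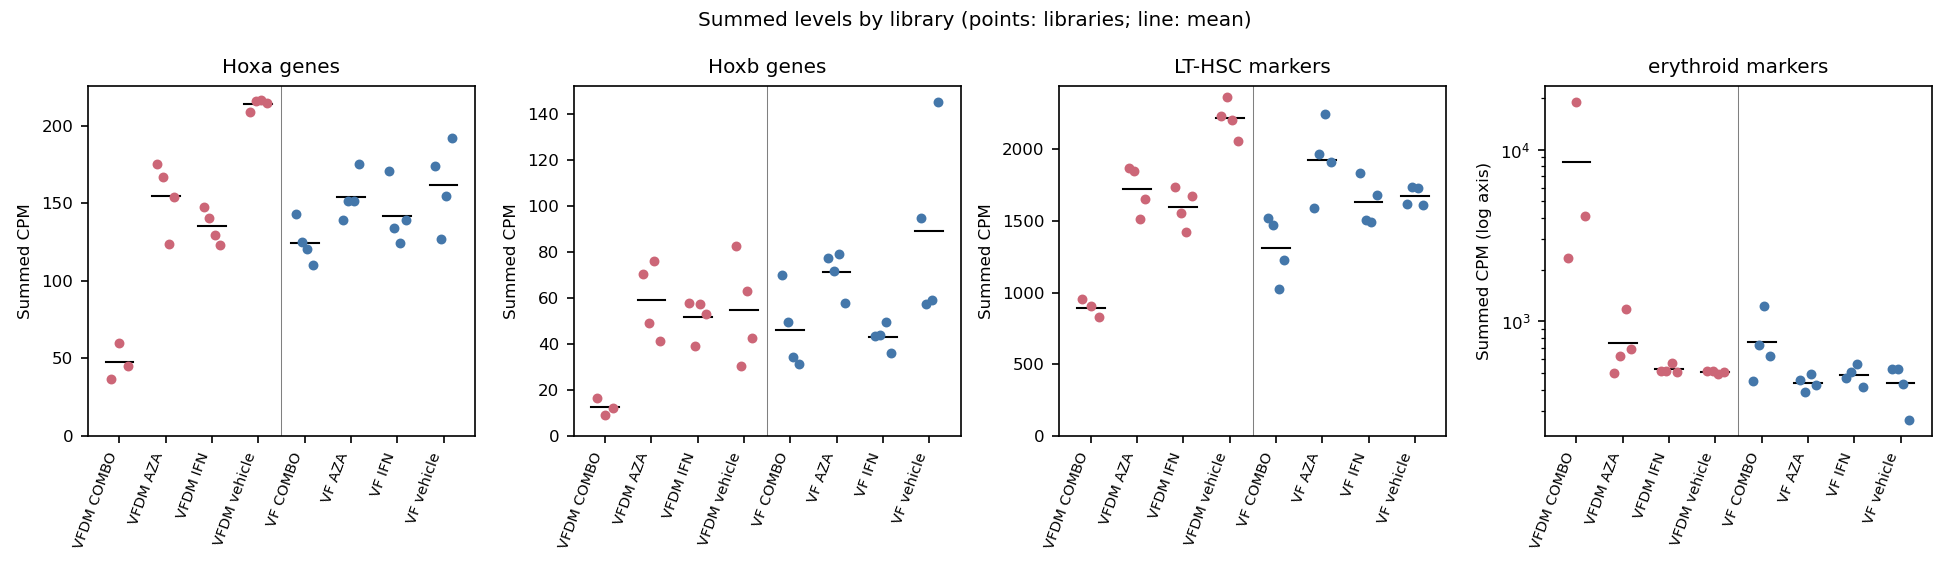
Summed CPM by library (points, with a line at the mean) of the 11 Hoxa genes, the 10 Hoxb genes, 14 LT-HSC markers and, on a log axis, 12 erythroid markers, by group. VFDM COMBO lies lowest for Hoxa (37.0 to 59.97 CPM), Hoxb (8.98 to 16.4 CPM) and LT-HSC markers (832 to 953 CPM) and highest for erythroid markers (2343 to 18951 CPM).

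Hox partners and regulators were read beside the clusters, in VFDM COMBO against VFDM vehicle, where 16% of all tested rows were called. Of 10 tested cofactors 3 were called, of 19 activators 4 and of 29 Polycomb and related genes 5, the activators and Polycomb genes near that share. Meis1, the partner of Hoxa9, averaged 346 ± 39.4 CPM in VFDM COMBO and 667 ± 50.8 CPM in VFDM vehicle libraries, a log2 fold change of -0.95 ± 0.12 (adjusted p = 1.27e-06). Pbx3 averaged 23.7 ± 5.11 CPM in VFDM COMBO and 42.0 ± 12.6 CPM in VFDM vehicle libraries (-0.83 ± 0.25, adjusted p = 0.0212), and Meis3 had no reads in VFDM COMBO, against 0.884 ± 0.527 CPM in VFDM vehicle libraries (adjusted p = 0.0383). Among the activators Dot1l, the H3K79 methyltransferase, and Aff1 rose, and Mllt3 and Aff4, also of elongation complexes, fell. The Cdx factors, which activate Hox genes in the embryo, had no reads or a trace in every group. Among the Polycomb genes Ezh2, the H3K27 methyltransferase, rose to 211 ± 17.5 CPM in VFDM COMBO, against 118 ± 14.2 CPM in VFDM vehicle libraries (0.84 ± 0.15, adjusted p = 0.000173), while Rbbp7, Cbx6 and Cbx7 fell. Cbx6 averaged 44.7 ± 17.2 CPM in VFDM COMBO and 167 ± 3.21 CPM in VFDM vehicle libraries (-1.89 ± 0.20, adjusted p = 4.28e-08).

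COMBO was also compared with each drug alone in VFDM cells. Against IFN alone the same 10 symbols passed, all lower, where 7.88% of tested rows were called and 6.28% were called lower. Against AZA alone the same 10 passed, all lower, where 7.82% were called and 5.87% were called lower. These comparisons and the one with vehicle share the 3 COMBO libraries and are not independent. Hoxa9 averaged 20.2 ± 2.75 CPM in VFDM COMBO, 36.0 ± 9.88 CPM in VFDM AZA and 35.4 ± 2.65 CPM in VFDM IFN libraries, with log2 fold changes of -0.84 ± 0.23 against AZA (adjusted p = 0.0182) and -0.81 ± 0.23 against IFN (adjusted p = 0.0211). It overlapped with AZA, whose library 3 stood at 22.7 CPM, and not with IFN. Hoxb3 averaged 1.90 ± 0.501 CPM in VFDM COMBO, 12.3 ± 3.68 CPM in VFDM AZA and 13.4 ± 2.47 CPM in VFDM IFN libraries, without overlap (adjusted p = 8.82e-06 against AZA and 5.04e-06 against IFN). Against IFN 12 members had no overlap on the lower side, as had 14.7% of rows, and against AZA 11, as had 9.14% of rows. Hoxa6 was closest to the threshold, with adjusted p = 0.0368 against IFN and 0.0406 against AZA. Without VFDM COMBO library 4 the call count against IFN fell to 5, and on the compared groups alone the counts were 6 against IFN and 5 against AZA. Of the 14 listed LT-HSC markers 10 were lower against IFN, Cd34 and Flt3 among them, and 9 against AZA, and 0 were higher. Of 12 erythroid markers 8 were higher against IFN and 7 against AZA. The part of these markers in the Hox differences was not tested.

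Each drug alone was compared with vehicle in VFDM cells. IFN gave 0 calls of 20 by edgeR, with 2 members under an unadjusted p of 0.05, and DESeq2 gave 0, where 0.965% of rows were called. Hoxa2, Hoxa3, Hoxa4, Hoxa5, Hoxa6, Hoxa7 and Hoxa9, 7 members, had no overlap between the groups on the lower side, as had 6.97% of rows. Hoxa9 stood at 36, 33.8, 33 and 38.9 CPM in VFDM IFN libraries 1 to 4, against 57.4, 58.7, 56.2 and 53.1 CPM in VFDM vehicle libraries, a log2 fold change of -0.67 ± 0.21 (adjusted p = 0.169). Every IFN library was below every vehicle library. Hoxa3, Hoxa4, Hoxa5, Hoxa7 and Hoxa9 were called lower by limma voom and in the fit on these groups alone, so the call depended on the fit. AZA also gave 0 calls, with 3 members under an unadjusted p of 0.05 and 0 calls by DESeq2, where 0.925% of rows were called. On the lower side 6 members had no overlap, as had 7.94% of rows. Hoxa7 stood at 30.1, 29, 20.4 and 37.2 CPM in VFDM AZA libraries, against 49.6, 44.1, 43.1 and 40.6 CPM in VFDM vehicle libraries (-0.60 ± 0.24, adjusted p = 0.345), and limma voom called Hoxa7 and Hoxa9 lower. Hoxa10 and Hoxb4 overlapped between AZA and vehicle. Summed LT-HSC markers also ran lower than the 2055 to 2366 CPM of VFDM vehicle libraries. They stood at 1514 to 1869 CPM in VFDM AZA and 1427 to 1739 CPM in VFDM IFN libraries. Of the 14 listed, 1 was called lower in each comparison, Cd34 under AZA and Hlf under IFN, and Ly6a was called higher in both. Of 12 erythroid markers 5 rose under AZA and 1 under IFN. The part of these markers in the Hox values was not tested.

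In VF cells the same treatments were compared with vehicle to show the response with Dnmt3a intact. Hoxb4 was the only member called in IFN and in COMBO, and none was called in AZA. IFN gave 1 lower call and 0 higher, where 2.43% of rows were called and 1.16% were called lower, and 2 members had no overlap on the lower side, as had 6.02% of rows. Hoxb4 stood at 14.8, 15.5, 17.8 and 18.6 CPM in VF IFN libraries 1 to 4, against 52.3, 23.5, 24.2 and 78.3 CPM in VF vehicle libraries 1 to 4. The IFN libraries lay together and below the vehicle libraries, of which 1 and 4 were far above 2 and 3. The log2 fold change was -1.42 ± 0.34 (adjusted p = 0.0165). COMBO gave 1 lower call, where 8.29% of rows were called and 4.13% were called lower, with Hoxb4 at 18.6, 22.9, 5.85 and 10.1 CPM in VF COMBO libraries (-1.63 ± 0.35, adjusted p = 0.00299) and no overlap. Hoxb4 and Hoxb6 had no overlap on the lower side, as had 8.8% of rows. Without VF vehicle libraries 1 and 4 the changes were -0.51 (adjusted p = 1) for IFN and -0.71 (adjusted p = 0.358) for COMBO, so the calls rested on those libraries. Their small and ribosomal RNA shares were 22.3% and 37.5%, and that of VF vehicle library 2 was 24.9%. Whether these shares bear on the Hoxb4 levels was not tested. The IFN call was also lost without VF IFN library 1 or 2, and the COMBO call by limma voom. AZA gave 0 calls by edgeR, with 2 members under an unadjusted p of 0.05, and 0 by DESeq2 and limma voom, where 1.2% of rows were called. Hoxa10 averaged 9.37 ± 1.93 CPM in VF AZA and 19.6 ± 5.66 CPM in VF vehicle libraries (adjusted p = 0.309), the 1 member with no overlap, where 4.38% of rows had none on the lower side.

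VF COMBO against a drug alone gave 0 Hox calls of 20 by edgeR against IFN, with 1 under an unadjusted p of 0.05, and 0 against AZA, with 3. Of all rows 0.00902% and 1.85% were called, and DESeq2 and limma voom also gave 0 in both. Against IFN 1 member, Hoxa10, had no overlap on the lower side, as had 8.31% of rows. Against VF vehicle, where 8.29% of rows were called, VF COMBO libraries were also lower in the listed LT-HSC markers, with no Hoxa gene called. Of the 14, 4 were lower, Flt3 among them, and 2, Ly6a and Cd48, were higher. Their sums were 1024 to 1519 CPM in VF COMBO and 1610 to 1739 CPM in VF vehicle libraries. Polycomb genes Ezh2, Suz12, Jarid2, Mtf2, Bmi1 and Asxl2 rose and Cbx6 fell in VF COMBO against VF vehicle, 7 of 29, where 8.29% of rows were called. Bmi1 stood at 22.8, 39.8, 44.1 and 26.6 CPM in VF vehicle libraries 1 to 4. Library 4 was the lowest VF vehicle library for Ezh2, Suz12, Mtf2 and Asxl2 and the highest for Jarid2 and Cbx6. How far these calls rest on VF vehicle libraries 1 and 4 was not tested.

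**Figure D5:**
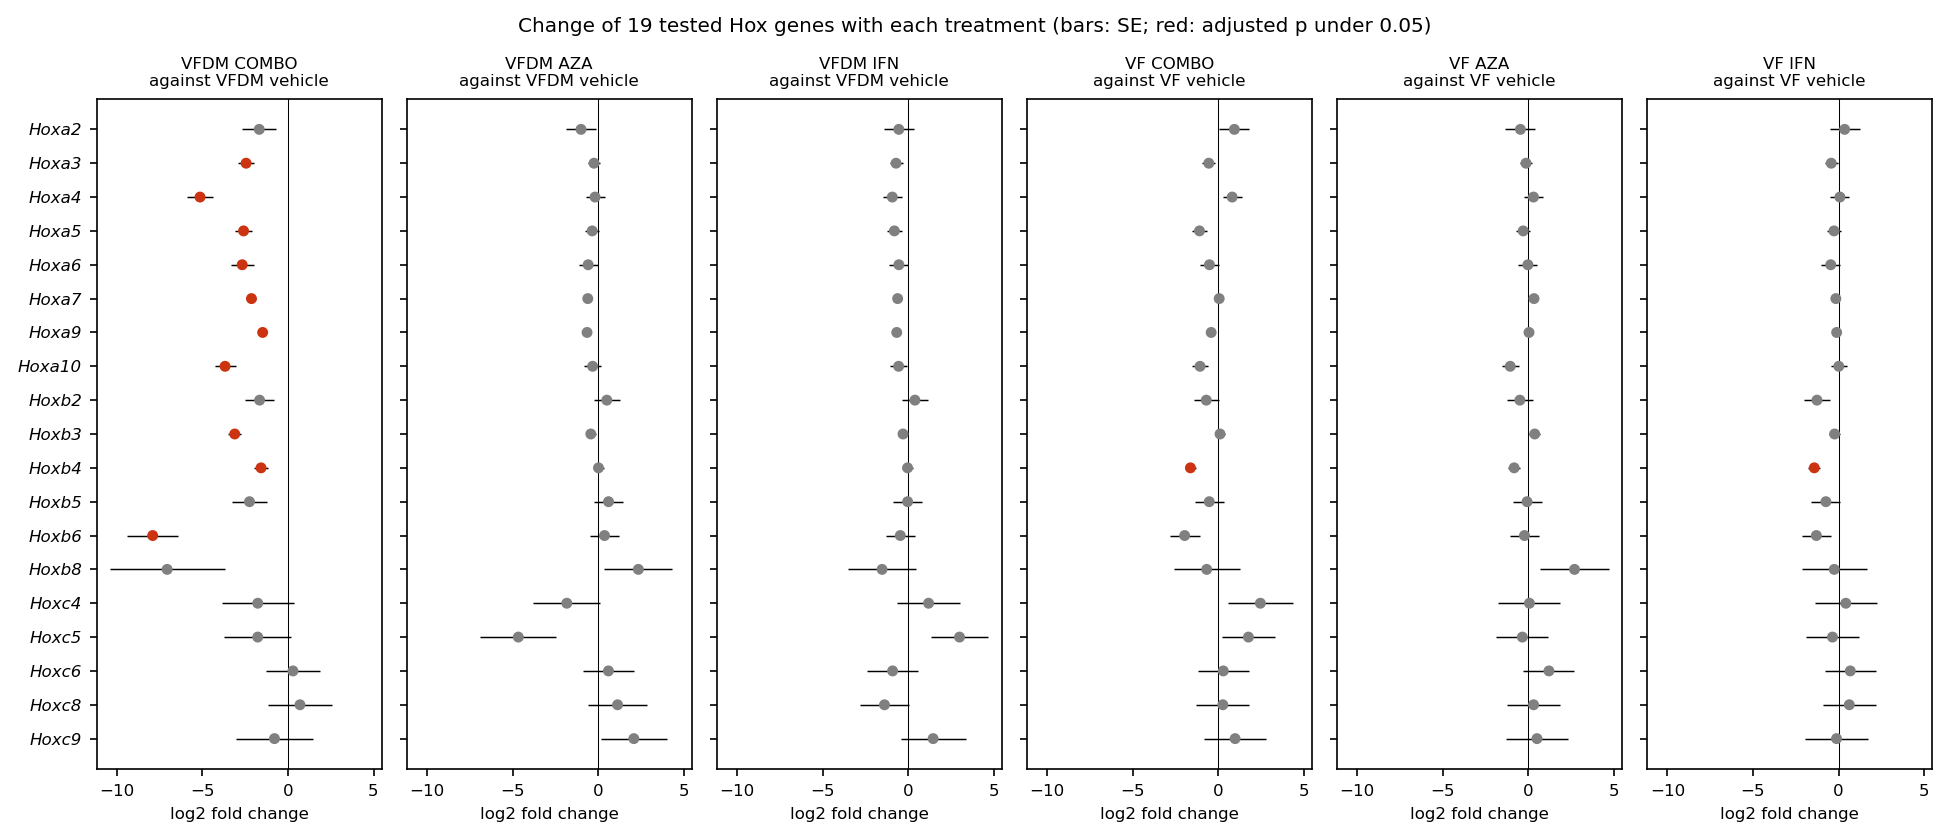
Log2 fold change ± SE of 19 tested Hox genes (rows) for each treatment against the vehicle of its genotype (panels), with called genes in red. In VFDM COMBO 10 genes are red and lie left of 0, Hoxa9 nearest to it at -1.48, and in the VF panels only Hoxb4 is red.

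The response to COMBO was then tested for a difference between genotypes with an interaction term. The log2 response was lower in VFDM than in VF for 6 of 20 members and higher for 0, where 3.74% of rows were called and 2.49% were called lower. The members were Hoxa4 (-5.95 ± 0.93, adjusted p = 0.000252), Hoxa7 (-2.19 ± 0.36, adjusted p = 0.000366), Hoxa9 (-1.06 ± 0.30, adjusted p = 0.0417), Hoxa10 (-2.61 ± 0.74, adjusted p = 0.0393), Hoxb3 (-3.22 ± 0.47, adjusted p = 0.000173) and Hoxb6 (-5.94 ± 1.67, adjusted p = 0.0383), each as VFDM minus VF. In VF itself COMBO against vehicle was 0.81 ± 0.56 for Hoxa4, 0.05 ± 0.24 for Hoxa7 and 0.10 ± 0.31 for Hoxb3, and -0.42 ± 0.21 for Hoxa9, -1.07 ± 0.49 for Hoxa10 and -1.97 ± 0.89 for Hoxb6, none of them called. Hoxb3 stood at 2.24, 1.32 and 2.13 CPM in VFDM COMBO and 22.2, 11, 20.4 and 12.7 CPM in VFDM vehicle libraries, against 20.1, 17.3, 17.7 and 8.37 CPM in VF COMBO and 14.6, 12.6, 14.3 and 17.7 CPM in VF vehicle libraries. The VFDM groups did not overlap and the VF groups did. Hoxa7 stood at 24.1, 39.6, 44.8 and 24.8 CPM in VF COMBO and 29.6, 26.6, 37.1 and 35.3 CPM in VF vehicle libraries, and the groups overlapped. Hoxa5 and Hoxb4 did not pass this test (adjusted p = 0.171 and 0.987), which does not show that they responded alike. In the same test 6 of 14 LT-HSC markers were lower in VFDM (Procr, Hlf, Mecom, Ctnnal1, Esam and Robo4) and 5 of 12 erythroid markers were higher, and their part in the Hox differences was not tested. Without VF vehicle library 2, VFDM vehicle library 3 or VFDM COMBO library 4 the count was 3, with the calls of Hoxa9, Hoxa10 and Hoxb6 lost. For IFN alone the interaction gave 0 calls of 20 (1 under an unadjusted p of 0.05), with 0% of rows called, and for AZA alone 0 (2 under 0.05), with 0.582% of rows called. DESeq2 gave 0 in both, and limma voom gave 0 for IFN and 1 for AZA.

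Genotype itself was compared under vehicle and as an average. Under vehicle VFDM gave 0 calls against VF of 20 by edgeR (2 under an unadjusted p of 0.05) and 0 by DESeq2, where 0.956% of rows were called. Hoxa9 stood at 57.4, 58.7, 56.2 and 53.1 CPM in VFDM vehicle libraries, against 38.6, 41.5, 48.5 and 42.9 CPM in VF vehicle libraries, all VFDM values above all VF values (0.39 ± 0.21, adjusted p = 0.49). Of the 20 tested members 4 had no overlap on the higher side, as had 6.34% of rows, and Hoxc5 had none on the lower side, as had 6.87% of rows. Limma voom called Hoxa3, Hoxa5 and Hoxa7 higher. Summed Hoxa levels were 209 to 217 CPM in VFDM vehicle and 127 to 192 CPM in VF vehicle libraries. Averaged over the 4 treatments, 5 members were lower and 0 higher in VFDM, where 2.37% of rows were called and 1.57% were called lower, namely Hoxa4 (-1.16 ± 0.29, adjusted p = 0.0255), Hoxb3 (-0.86 ± 0.16, adjusted p = 0.00151), Hoxb6 (-2.17 ± 0.52, adjusted p = 0.0161), Hoxc5 (-4.20 ± 0.97, adjusted p = 0.015) and Hoxc8 (-4.40 ± 0.95, adjusted p = 0.00844). In this average 6 of the 14 listed LT-HSC markers were lower in VFDM, Cd34 and Flt3 among them, and 2, Slamf1 and Cd48, were higher. Of 12 erythroid markers 5 were higher, and the part of these markers was again not tested. Averaged over vehicle, IFN and AZA, with the COMBO groups left out, Hoxc8 alone was called and Hoxa4 turned to 0.21. Hoxc8 and Hoxc5 were near the detection limit. Hoxc8 stood at 0 to 0.0325 CPM in VFDM libraries, against 0 to 0.747 CPM in VF libraries, and Hoxc5 at 0 to 2.25 CPM in VFDM libraries, against 0 to 7.58 CPM in VF libraries, and fitted folds of such low genes depend on the prior count.

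Group means are given for each member with a mean of at least 1 CPM or a call, with the SD over 3 VFDM COMBO libraries and 4 libraries of each other group. Hoxa9 averaged 20.2 ± 2.75 in VFDM COMBO, 36 ± 9.88 in VFDM AZA, 35.4 ± 2.65 in VFDM IFN, 56.4 ± 2.38 in VFDM vehicle, 32.1 ± 12.1 in VF COMBO, 43.9 ± 7.1 in VF AZA, 39.8 ± 4.21 in VF IFN and 42.9 ± 4.13 in VF vehicle libraries, in CPM. Hoxa7 averaged 10.1 ± 4.78 in VFDM COMBO, 29.2 ± 6.9 in VFDM AZA, 28.9 ± 6.27 in VFDM IFN, 44.4 ± 3.77 in VFDM vehicle, 33.3 ± 10.5 in VF COMBO, 40.4 ± 5.99 in VF AZA, 28.9 ± 2.57 in VF IFN and 32.2 ± 4.91 in VF vehicle libraries, in CPM. Hoxa10 averaged 1.96 ± 1.81 in VFDM COMBO, 19.7 ± 9.38 in VFDM AZA, 16.6 ± 7.47 in VFDM IFN, 24.6 ± 6.48 in VFDM vehicle, 9.32 ± 3.63 in VF COMBO, 9.37 ± 1.93 in VF AZA, 19.8 ± 3.3 in VF IFN and 19.6 ± 5.66 in VF vehicle libraries, in CPM. For these 5′ Hoxa genes VFDM vehicle had the highest group mean and VFDM COMBO the lowest. Hoxa3 averaged 7.69 ± 6.56 in VFDM COMBO, 35.2 ± 3.2 in VFDM AZA, 25.4 ± 5.29 in VFDM IFN, 41.6 ± 3.36 in VFDM vehicle, 22.6 ± 6.63 in VF COMBO, 30.2 ± 12 in VF AZA, 24.8 ± 9.24 in VF IFN and 33.3 ± 13.5 in VF vehicle libraries, in CPM. Hoxa5 averaged 3.61 ± 2.5 in VFDM COMBO, 17 ± 2.96 in VFDM AZA, 12.4 ± 2.59 in VFDM IFN, 21.7 ± 2.08 in VFDM vehicle, 7.53 ± 4.78 in VF COMBO, 13.1 ± 6.47 in VF AZA, 13.5 ± 5.21 in VF IFN and 16.2 ± 3.92 in VF vehicle libraries, in CPM. Hoxa6 averaged 2.32 ± 2.12 in VFDM COMBO, 9.83 ± 3.26 in VFDM AZA, 10.1 ± 1.78 in VFDM IFN, 14.7 ± 0.939 in VFDM vehicle, 8.05 ± 5.21 in VF COMBO, 11.3 ± 3.73 in VF AZA, 8.42 ± 1.03 in VF IFN and 11.6 ± 4.41 in VF vehicle libraries, in CPM. The same groups were highest and lowest for Hoxa3, Hoxa5 and Hoxa6. Hoxa2 averaged 1.43 ± 1.32 in VFDM COMBO, 2.28 ± 0.294 in VFDM AZA, 3.12 ± 0.451 in VFDM IFN, 4.56 ± 0.72 in VFDM vehicle, 4.1 ± 4 in VF COMBO, 1.54 ± 1.06 in VF AZA, 2.74 ± 1.57 in VF IFN and 2.13 ± 0.63 in VF vehicle libraries, in CPM. Hoxa4 averaged 0.157 ± 0.137 in VFDM COMBO, 5.35 ± 2.64 in VFDM AZA, 3.17 ± 0.436 in VFDM IFN, 6.05 ± 0.869 in VFDM vehicle, 6.52 ± 2.29 in VF COMBO, 4.57 ± 0.827 in VF AZA, 3.94 ± 1.65 in VF IFN and 3.73 ± 1.45 in VF vehicle libraries, in CPM. Hoxa2 was lowest in VFDM COMBO with a wide spread in VF COMBO, and Hoxa4 was highest in VF COMBO. Hoxb3 averaged 1.9 ± 0.501 in VFDM COMBO, 12.3 ± 3.68 in VFDM AZA, 13.4 ± 2.47 in VFDM IFN, 16.6 ± 5.55 in VFDM vehicle, 15.9 ± 5.14 in VF COMBO, 19.1 ± 5.36 in VF AZA, 12.6 ± 1.94 in VF IFN and 14.8 ± 2.13 in VF vehicle libraries, in CPM. Hoxb4 averaged 7.25 ± 1.65 in VFDM COMBO, 21.9 ± 6.02 in VFDM AZA, 21.1 ± 2.87 in VFDM IFN, 21.6 ± 5.44 in VFDM vehicle, 14.4 ± 7.78 in VF COMBO, 25 ± 5 in VF AZA, 16.7 ± 1.84 in VF IFN and 44.6 ± 26.2 in VF vehicle libraries, in CPM. Hoxb6 averaged 0.0105 ± 0.0181 in VFDM COMBO, 4.87 ± 3.8 in VFDM AZA, 2.73 ± 1.18 in VFDM IFN, 3.77 ± 3.33 in VFDM vehicle, 1.98 ± 2.17 in VF COMBO, 6.64 ± 3.66 in VF AZA, 3.17 ± 0.912 in VF IFN and 7.8 ± 2.42 in VF vehicle libraries, in CPM. The Hoxb genes were also lowest in VFDM COMBO, and VF vehicle had the highest means of Hoxb4 and Hoxb6. Hoxb2 averaged 2.43 ± 2.1 in VFDM COMBO, 11.1 ± 5.52 in VFDM AZA, 10.2 ± 3.02 in VFDM IFN, 7.79 ± 5.4 in VFDM vehicle, 8.91 ± 5.54 in VF COMBO, 10.2 ± 6.52 in VF AZA, 6.06 ± 4.31 in VF IFN and 14.5 ± 11.3 in VF vehicle libraries, in CPM. Hoxb5 averaged 0.849 ± 0.737 in VFDM COMBO, 6.31 ± 2.76 in VFDM AZA, 4.04 ± 1.44 in VFDM IFN, 4.14 ± 2.7 in VFDM vehicle, 4.63 ± 6.22 in VF COMBO, 6.34 ± 2.42 in VF AZA, 4.02 ± 1.14 in VF IFN and 6.71 ± 2.33 in VF vehicle libraries, in CPM. Hoxb8 averaged 0 in VFDM COMBO, 2.44 ± 4.23 in VFDM AZA, 0.173 ± 0.346 in VFDM IFN, 0.478 ± 0.827 in VFDM vehicle, 0.371 ± 0.741 in VF COMBO, 3.86 ± 4.43 in VF AZA, 0.498 ± 0.619 in VF IFN and 0.59 ± 0.675 in VF vehicle libraries, in CPM. Hoxb2, Hoxb5 and Hoxb8 varied widely between libraries of a group, Hoxb2 running from 0.814 to 11.4 CPM in VF IFN libraries. Hoxc6 averaged 1.29 ± 1.98 in VFDM COMBO, 1.59 ± 2.54 in VFDM AZA, 0.549 ± 0.834 in VFDM IFN, 1.05 ± 1.17 in VFDM vehicle, 1.92 ± 2.28 in VF COMBO, 3.63 ± 2.67 in VF AZA, 2.55 ± 1.66 in VF IFN and 1.57 ± 0.432 in VF vehicle libraries, in CPM. Hoxc5 averaged 0.021 ± 0.0182 in VFDM COMBO, 0 in VFDM AZA, 0.731 ± 1.06 in VFDM IFN, 0.088 ± 0.0653 in VFDM vehicle, 2.6 ± 3.39 in VF COMBO, 0.603 ± 0.761 in VF AZA, 0.6 ± 0.246 in VF IFN and 0.759 ± 0.674 in VF vehicle libraries, in CPM. Hoxc8 averaged 0.0105 ± 0.0181 in VFDM COMBO, 0.0157 ± 0.0182 in VFDM AZA, 0 in VFDM IFN, 0.00549 ± 0.011 in VFDM vehicle, 0.203 ± 0.235 in VF COMBO, 0.216 ± 0.357 in VF AZA, 0.267 ± 0.263 in VF IFN and 0.176 ± 0.233 in VF vehicle libraries, in CPM. These Hoxc genes were patchy, the SD exceeding the mean in several groups.

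The clusters also hold 50 other rows, between or within 5 kb of the Hox genes, many of them antisense RNAs and microRNAs. Of these 8 were detected, 22 were at a low level and 20 had no reads. Those detected were Hoxaas3, Hotairm1, Gm28308 and Mir196b in the Hoxa cluster and Hoxb3os, Hoxb5os, Gm11539 and Mir10a in the Hoxb cluster. Hotair, Hottip, Mir10b and Mir196a-1 had no reads. For the microRNAs the mature RefSeq sequences (GRCm38.p6, 5′ to 3′, seed bases 2 to 8 in capitals) are given for miR-10 and miR-196, families with members in more than 1 cluster. Mir615 in the Hoxc cluster, which has other seeds, had 10 counts in all and is not printed.
mmu-miR-10a-5p: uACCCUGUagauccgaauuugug
mmu-miR-10b-5p: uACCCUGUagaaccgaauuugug
mmu-miR-196a-5p: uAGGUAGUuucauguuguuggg
mmu-miR-196b-5p: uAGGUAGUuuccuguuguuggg
Mir10a lies just before Hoxb4 (chr11:96317186-96317208), Mir10b in the Hoxd cluster (chr2:74726074-74726096) and Mir196b within the annotated exons of Hoxa9 (chr6:52230129-52230150). Counted from the 5′ end, miR-10a and miR-10b differ by U12A and miR-196a and miR-196b by A12C, with the seeds shared. The rows count total RNA over the hairpin, not mature microRNA. Mir10a had no reads in VFDM COMBO, against a mean of 0.630 CPM in VFDM vehicle libraries (adjusted p = 0.0263), and Mir196b had none, against 0.870 CPM in VFDM vehicle libraries (adjusted p = 0.0125). Gm28308, annotated as protein coding and sharing exon bases with Hoxa2 and Hoxa3, averaged 1.29 CPM in VFDM COMBO and 9.53 CPM in VFDM vehicle libraries (-2.87 ± 0.80, adjusted p = 0.0117), while the antisense RNAs Hoxb3os (8.66 CPM in VFDM COMBO and 8.13 CPM in VFDM vehicle libraries) and Hoxaas3 (0.368 CPM in VFDM COMBO and 1.19 CPM in VFDM vehicle libraries) did not pass. Elsewhere the pseudogene Gm11539 averaged 4.15 ± 2.06 CPM in VF COMBO and 13.6 ± 9.95 CPM in VF vehicle libraries (-1.71 ± 0.46, adjusted p = 0.017). The remaining groups averaged 5.11 to 7.78 CPM, so VF vehicle stood apart, with a wide spread. How far the Gm11539 call rests on single VF vehicle libraries was not tested. The antisense RNA Hotairm1 was lower in VFDM in the average over treatments (adjusted p = 0.00942), with group means of 0 to 0.162 CPM in VFDM and 0.389 to 1.14 CPM in VF. Against the single drugs in VFDM cells COMBO was called lower for Mir10a (adjusted p = 0.0474 against IFN and 0.0203 against AZA), Mir196b (0.0316 against IFN) and Gm28308 (0.0295 against AZA), and Mir196b also differed between genotypes in its COMBO response (adjusted p = 0.0476).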

How the data were processed

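Gene counts for 31 libraries were used as deposited by the authors. The tools STAR 2.7.10a, featureCounts, FastQC 0.11.5 and R 4.3.0 and the build mm10 are listed without their roles, per the submitters' processing notes, and the labels' protocols name a stranded SMART-Seq kit. For the annotation, strand setting and multi-mapping reads the sources used here give nothing.

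Here counts were scaled by TMM and tested with edgeR 4.0.16 (R 4.3.3) quasi-likelihood fits with a mean per group over all 31 libraries. Rows were kept by filterByExpr (minimum count 10, minimum total 15), leaving 22172 of 55492, and p-values were Benjamini-Hochberg adjusted over these. The SE is the log2 fold change divided by the root of F. Positions and overlaps came from GENCODE M21. The fit was tested on simulated data. Alternatives were DESeq2 1.42.0, limma 3.58.1 voom, other filters and scalings, compared groups alone, a replicate block and left-out libraries.

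The members, lists and tests were chosen with earlier results of these data known. Every member was counted, and some results are not reported here. Members that passed a test or averaged at least 1 CPM were described in each group, library values were given for members that passed and the 4 most abundant, and at most 6 passing members of another list were named per comparison, by smallest p. Intervals and floors of 3 counts cover counting error only.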

Additional observations from a re-analysis of the deposited data

Results flagged for a closer look

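In groups of 4 libraries, 15 of 119 gene and group combinations (12.6%) had 1 library far from the other 3. The cut-off flags about 5% of normally distributed values. Low counts are not so distributed, and most flags fell on Hoxb8, Hoxc4 and Hoxc6, so the share does not measure an excess of outlying libraries. In VFDM AZA library 3, Hoxa4 stood at 1.40 CPM (others 6.32 to 6.85), Hoxa6 at 4.98 CPM (others 11.1 to 12) and Hoxb8 at 8.75 CPM (others 0 to 1.02). Hoxa5 stood at 21.3 CPM in VF IFN library 1 (others 10.8 to 11), and Hoxb2 at 31.2 CPM in VF vehicle library 4 (others 7.75 to 11.2). Hoxb8 also stood apart at 1.42 CPM in VF IFN library 2, 1.48 CPM in VF COMBO library 1, 1.71 CPM in VFDM vehicle library 1 and 0.693 CPM in VFDM IFN library 4. Hoxc4 stood apart at 1.95 CPM in VF AZA library 4, 1.16 CPM in VFDM vehicle library 1, 3.12 CPM in VFDM IFN library 4 and 0.368 CPM in VFDM AZA library 2. Hoxc6 stood apart at 1.80 CPM in VFDM IFN library 2 and 5.37 CPM in VFDM AZA library 4.

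The COMBO response differed between genotypes, by an interaction term in edgeR, for Hoxa4 (-5.95), Hoxa7 (-2.19), Hoxa9 (-1.06), Hoxa10 (-2.61), Hoxb3 (-3.22) and Hoxb6 (-5.94), as log2 differences of VFDM minus VF. Of 25 alternative fits, the call was lost in 16 for Hoxa9, 13 for Hoxa10, 13 for Hoxb6 and 1 for Hoxb3. It was lost in 0 for Hoxa4 and Hoxa7.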

How the results depend on the processing

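Of 901 alternatives over 43 gene results, 790 kept direction and call, 110 lost the call and 1 reversed: Hoxa4 in the genotype average was 0.2054 over vehicle, IFN and AZA only, a setting chosen after seeing the data. That setting leaves out the COMBO groups, where Hoxa4 averaged 0.157 CPM in VFDM and 6.52 CPM in VF. The cause of that COMBO difference was not tested. Of 313 alternative Hox call counts, 282 stayed within 1.5 times. With the compared groups alone the count was 0 for VF IFN and VF COMBO against vehicle, 5 for VFDM IFN against vehicle, 6 for VFDM COMBO against IFN, 5 against AZA and 3 for the COMBO difference. With limma voom it was 0 for VF COMBO, 5 for VFDM IFN, 2 for VFDM AZA, 3 for VFDM against VF under vehicle, 3 for the genotype average, 1 for the AZA difference and 3 for the COMBO difference. Without the libraries under 20000 detected rows it was 1 for VFDM IFN and 1 for the genotype average. Without VF vehicle libraries 1 and 4 it was 0 for VF IFN and VF COMBO and 3 for the average, which was 1 without the COMBO groups. Leaving out 1 library gave 0 to 1 for VF IFN, 1 to 2 for VF COMBO, 0 to 1 for VF COMBO against AZA, 5 to 10 for VFDM COMBO against IFN, 7 to 10 against AZA, 10 in each fit against vehicle, 0 to 1 for genotype under vehicle (1, Hoxb4, without VF vehicle library 3), 4 to 6 for the average and 3 to 6 for the COMBO difference.

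Replicate numbers did not pair libraries: same-numbered pairs had a median r of -0.000777 (6 of 105 over 0.1), and 10 of 31 libraries correlated best with their own number. With the replicate block the counts were 1 for VF IFN, 1 for VF COMBO, 10 for VFDM COMBO against vehicle, 9 against IFN, 9 against AZA, 5 for the average, 4 for the COMBO difference and 0 for the others. Genes under 0.174 CPM lie below 3 counts in the smallest library.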
